A study of Mchenga conophoros and Petrotilapia sp. 'chitimba' with 16 samples.

Results

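The genes described here encode the proteasome and the enzymes that attach ubiquitin to proteins or remove it. They were taken by name from the gene symbols of a table of read counts per assembled locus: every locus matched to an annotated gene whose symbol begins with psma to psmg and a digit, ube2, ube3, usp and a digit, or uchl. The rule found 98 genes among 30487 loci matched to annotated genes and 61384 loci in all. Of these, 35 carry proteasome names, 23 belong to conjugation (20 ube2 and 3 ube3 genes) and 40 to deubiquitination (37 usp and 3 uchl genes). Names are not functions: psmc3ip is named for binding a proteasome ATPase but is known in mammals for meiotic recombination, and usp6nl is a GTPase-activating protein rather than a protease. No locus taken by this rule carries the symbol ube3a, psma6, psma7, psmb5, psmb6, psmb7 or psmc2. The families below therefore hold only the genes that matched.

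The proteasome degrades proteins tagged with ubiquitin. Its barrel-shaped core is built of rings of alpha subunits, which gate the entrance, and rings of beta subunits, some of which cut the substrate. A regulatory particle caps the core: its ATPases (psmc genes) unfold the substrate, and its other subunits (psmd genes) recognise and remove the ubiquitin chain. Ubiquitin is passed by an activating enzyme to a conjugating enzyme (ube2 genes) and placed on a substrate with the help of a ligase, of which the ube3 genes are a small family. Ubiquitin-specific proteases (usp genes) and C-terminal hydrolases (uchl genes) take it off again. In neurons the system turns over synaptic proteins, and uchl1 is among the abundant proteins of mammalian neurons.

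The cichlids studied were adult males of a pair of species, Mchenga conophoros (MC, 4 fish) and Petrotilapia sp. 'chitimba' (PC, 4 fish), whose aggression to a mirror differs per the series text. Of each species 2 fish faced a mirror placed in their tank for 15 min and the other 2 served as controls, and whole brains were taken 90 min later. A brain gave a library of total RNA (input) and a library of RNA pulled down through phosphorylated ribosomal protein S6 (IP), a mark of active neurons, in the method called PhosphoTRAP. The control fish were 10 and 22 (MC) and 11 and 24 (PC), and the mirror fish 9 and 21 (MC) and 12 and 23 (PC). Fish 9 to 12 were processed in batch a and fish 21 to 24 in batch b, so each batch holds 1 fish of every species and exposure. No genotype, strain or transgene is named, and a whole brain mixes neurons with all other cell types.

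Input libraries held 10073251 to 23594320 counts and IP libraries 1872019 to 11186928. The PC mirror inputs were the deepest, with 22058698 and 23594320 counts, against 10073251 to 12190271 in the other 6. Marker genes of neurons, radial glia, oligodendrocytes, microglia and vessels were counted in input, as a whole brain should give, and no marker of red blood cells matched a symbol. Counts were found for 88 to 97 members in each input library and for 16 to 55 in each IP library. One member, psmb8, a beta subunit of the immunoproteasome of mammals, had 0 counts in all 16 libraries, and the other 97 passed the filter on low counts and were tested.

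The species comparison in total RNA asked which members differ between PC and MC brains irrespective of the mirror. In PC, 29 of 97 members were higher and 2 were lower at an adjusted p under 0.05, against 8.16% of all 28742 loci tested that were higher and 2.28% that were lower. Among loci matched to annotated genes these shares were 10.7% and 1.96%. The calls fell unevenly over the families. Of 34 proteasome genes tested, 19 were higher in PC and 0 lower, with a median log2 fold change of 1.15, and 25 had an unadjusted p under 0.05, against 25.5% of all loci. Of the 23 conjugation genes, 8 were higher and 1 lower (median 0.94). Of the 40 deubiquitination genes, 2 were higher and 1 lower (median −0.16), while the median over all loci was 0.03. These counts are from edgeR on the 8 input libraries. The number of members higher was 12 in the mirror fish alone and 12 with library totals in place of the scaling by TMM factors. With 1 fish left out it moved up or down, and in each batch alone it fell. The number of calls over all loci rose or fell in the same runs, though not in proportion. Runs without a fish tested more loci, and in some of them the share of all loci called higher fell while the number rose. With 1 fish left out the proteasome median was 0.99 to 1.34. Over all loci, 2345 were higher in the reported fit and 1398 with library totals, each of 28742. In the mirror fish alone 988 of 26078 were higher, in the control fish alone 40 of 22888, and with all 16 libraries together 0 of 29597. Runs without a fish leave 1 fish in a group and tested more loci, 37060 to 40991. With library totals 52.9% of all calls were higher in PC (78.2% with TMM, 61.4% with DESeq2) and the median over all loci was −0.31. By edgeR 0 members were higher in batch b alone, in the control fish alone and with all 16 libraries in one fit, where 33, 30 and 1 members had an unadjusted p under 0.05. Leaving out fish 10 ended the calls of psmc4, psmd14, ube2g2, ube2n, usp34 and usp39, fish 11 those of ube2n, ube3b and usp39, and fish 12 that of ube2n. Leaving out fish 22 ended the call of ube3b, fish 23 those of psmd7, ube3b and usp39, and fish 24 those of psmc4, psmd14, ube2n and ube3b. In an RNA sample from a whole organ, fewer cells of a type and less RNA per cell cannot be told apart.

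Summed over its 35 members, the proteasome stood at 774 and 1140 CPM (counts relative to the library total, here scaled by TMM factors) in the MC controls 10 and 22 and at 679 and 763 in the MC mirror fish 9 and 21. In PC the sums were 1563 and 2000 (controls 11 and 24) and 1812 and 2155 (mirror fish 12 and 23). The ranges did not overlap, and the PC mean was 2.24 times the MC mean. Fish 22 was the highest of the MC fish, and fish 11 the lowest of the PC fish. The CPM and fold changes below are on this scale, which differs from that of library totals by the factors given further on. The conjugation genes summed to 386 to 652 CPM in MC and 931 to 1194 in PC, 2.14 times higher and again without overlap. The deubiquitination genes summed to 591 to 703 CPM in MC and 670 to 801 in PC, ranges that overlap.

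**Figure D1:**
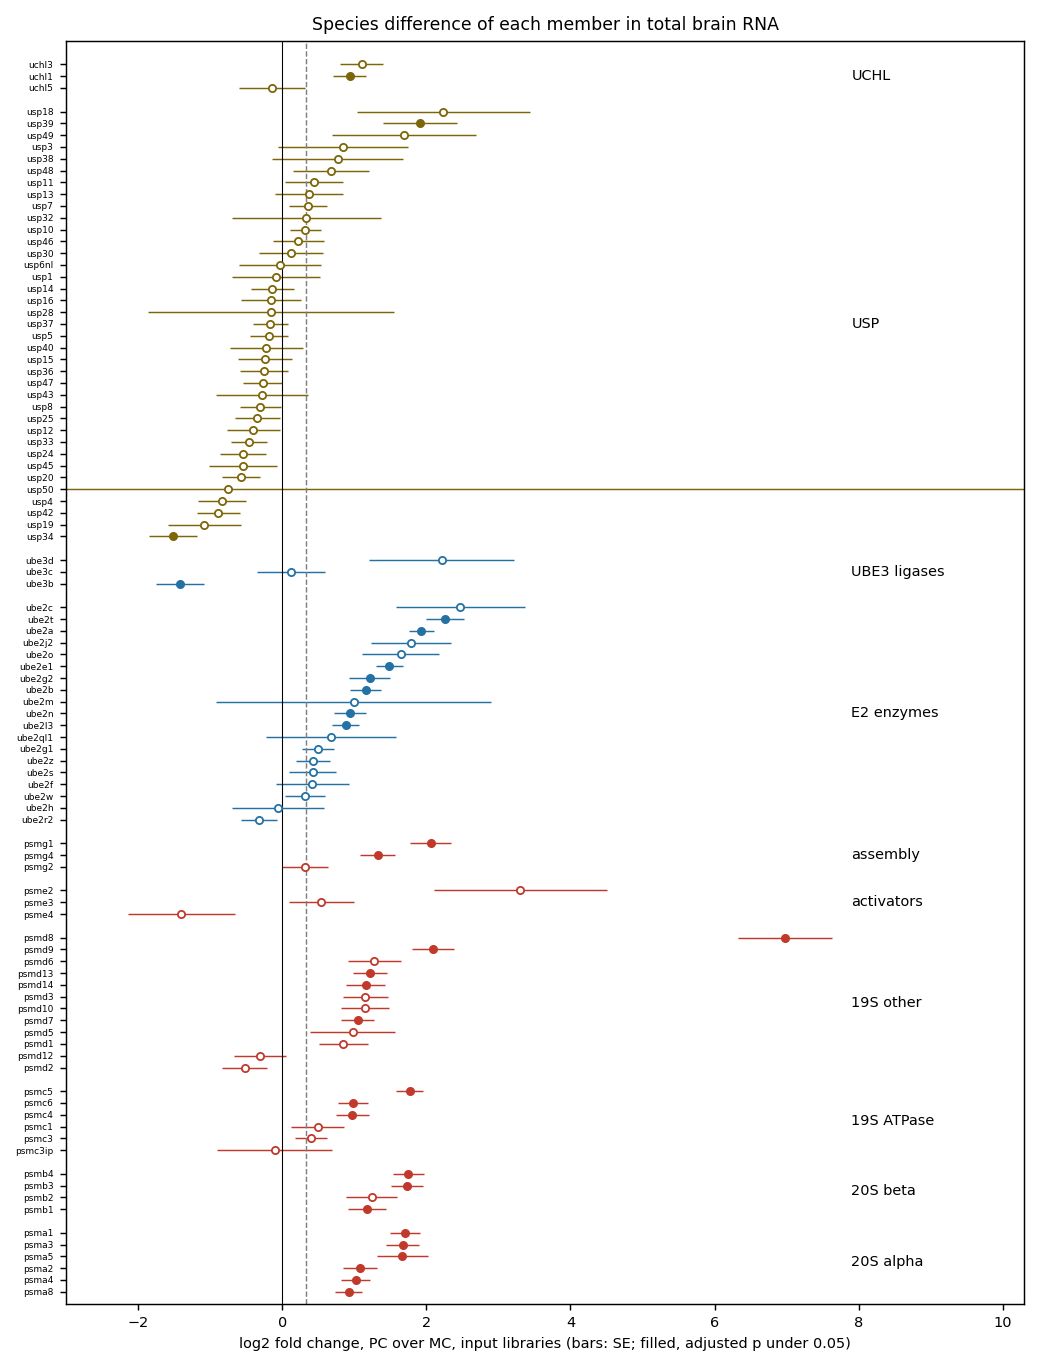
Log2 fold change of PC over MC in the input libraries (horizontal axis, with its SE) for the tested members, 1 left out, grouped by family. Filled points passed an adjusted p of 0.05, the dashed line marks the median of annotated loci (0.32), and the bar of usp50 runs beyond the axis. The alpha and beta subunits all lie to the right of the line, and most usp genes to its left.

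All 6 alpha subunit genes that matched, psma1 to psma5 and psma8, were higher in PC (median log2 fold change 1.37). For psma1, the MC controls had 31.4 and 51.8 scaled CPM and the MC mirror fish 24.1 and 26.9, whereas the PC controls had 78.8 and 109 and the PC mirror fish 94.1 and 148. Every PC fish lay above every MC fish, and the log2 fold change was 1.70 ± 0.20 (SE; edgeR adjusted p = 0.0016). For psma3 the MC fish had 44.1 and 49.3 (controls) and 20.8 and 44.6 (mirror), and the PC fish 109 and 126 (controls) and 118 and 135 (mirror), a log2 fold change of 1.67 ± 0.23. The lowest of the 6, psma8, known in mammals as the testis form of an alpha subunit, was still higher by 0.92 ± 0.19, with 59.8 to 82.3 CPM in MC and 132 to 148 in PC. The remaining alpha subunits, psma2, psma4 and psma5, differed by 1.02 to 1.67. The locus of psma3 lies within that of arid4a on the other strand, which had 2435 counts against 16089 for psma3, and whether reads were counted by strand is not stated, so some reads cannot be assigned between them.

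Of the 4 beta subunit genes that matched and were tested, psmb1 to psmb4, 3 were higher in PC. The subunit psmb4 had 32.0 and 46.7 CPM in MC controls and 19.7 and 40.0 in MC mirror fish, against 85.4 and 123 in PC controls and 114 and 127 in PC mirror fish. The groups did not overlap (log2 fold change 1.75 ± 0.22, adjusted p = 0.0018). The subunits psmb3 and psmb1 differed by 1.74 ± 0.22 and 1.17 ± 0.27. The fourth, psmb2, did not pass (1.24 ± 0.36, adjusted p = 0.0617): PC control fish 11 had 15.0 CPM, within the MC range of 9.84 to 31.8, and the other PC fish had 42.3 to 61.3.

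In the regulatory particle, 3 of 6 psmc loci were higher in PC. The largest difference among these ATPases was that of psmc5, with 50.4 and 90.0 CPM in MC controls and 28.6 and 47.8 in MC mirror fish, and 134 and 213 in PC controls and 149 and 197 in PC mirror fish (log2 fold change 1.77 ± 0.19, adjusted p = 0.00103). The ATPases psmc4 and psmc6 differed by 0.97 ± 0.23 and 0.99 ± 0.21. The ATPase psmc3 did not pass: its MC fish ranged from 31.5 to 61.7 CPM and its PC fish from 50.8 to 60.7, so the groups overlapped (0.39 ± 0.22, adjusted p = 0.296). Neither psmc1 nor psmc3ip passed.

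Of 12 psmd genes, 5 were higher in PC. The subunit psmd9, in mammals a chaperone of the ATPase ring, had 17.6 and 23.5 CPM in MC controls and 15.6 and 11.3 in MC mirror fish, and 46.8 and 89.5 in PC controls and 56.5 and 108 in PC mirror fish (2.09 ± 0.29, adjusted p = 0.0025). The metalloprotease psmd14, which cuts ubiquitin chains from substrates at the proteasome, differed by 1.16 ± 0.27, although its PC fish 11 (28.9 CPM) lay just under MC fish 22 (29.2). The subunits psmd7 and psmd13 differed by 1.04 ± 0.23 and 1.22 ± 0.24. The gene psmd8 had the largest fitted change of any member: its raw counts were 12 and 45 in MC controls, 0 and 0 in MC mirror fish, 134 and 240 counts in PC controls 11 and 24, and 208 and 479 in PC mirror fish 12 and 23. Because both MC mirror fish were at 0, its fitted log2 fold change of 6.98 depends on the prior count. The ratio of the species means of scaled CPM was 14.3, and it was 56.6 without MC fish 22, which held 45 of the 57 MC counts, and 10.7 to 13.2 without any other MC fish. The subunit psmd2 had a log2 fold change of −0.52 ± 0.31 and did not pass (adjusted p = 0.324).

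Among assembly factors, psmg1, a chaperone of the alpha ring, had 8.93 and 20.1 CPM in MC controls and 6.30 and 5.47 in MC mirror fish, and 34.0 and 42.1 in PC controls and 31.5 and 46.4 in PC mirror fish (2.06 ± 0.29, adjusted p = 0.0027). The second factor psmg4 differed by 1.32 ± 0.25, and psmg2 did not pass. None of the 3 activators (psme genes, which cap the core in place of the regulatory particle) passed. For psme2 the MC fish had 0 to 2.90 CPM and the PC fish 4.63 to 16.2 without overlap, yet at this depth the fitted difference had an SE of 1.21 (adjusted p = 0.127).

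**Figure D2:**
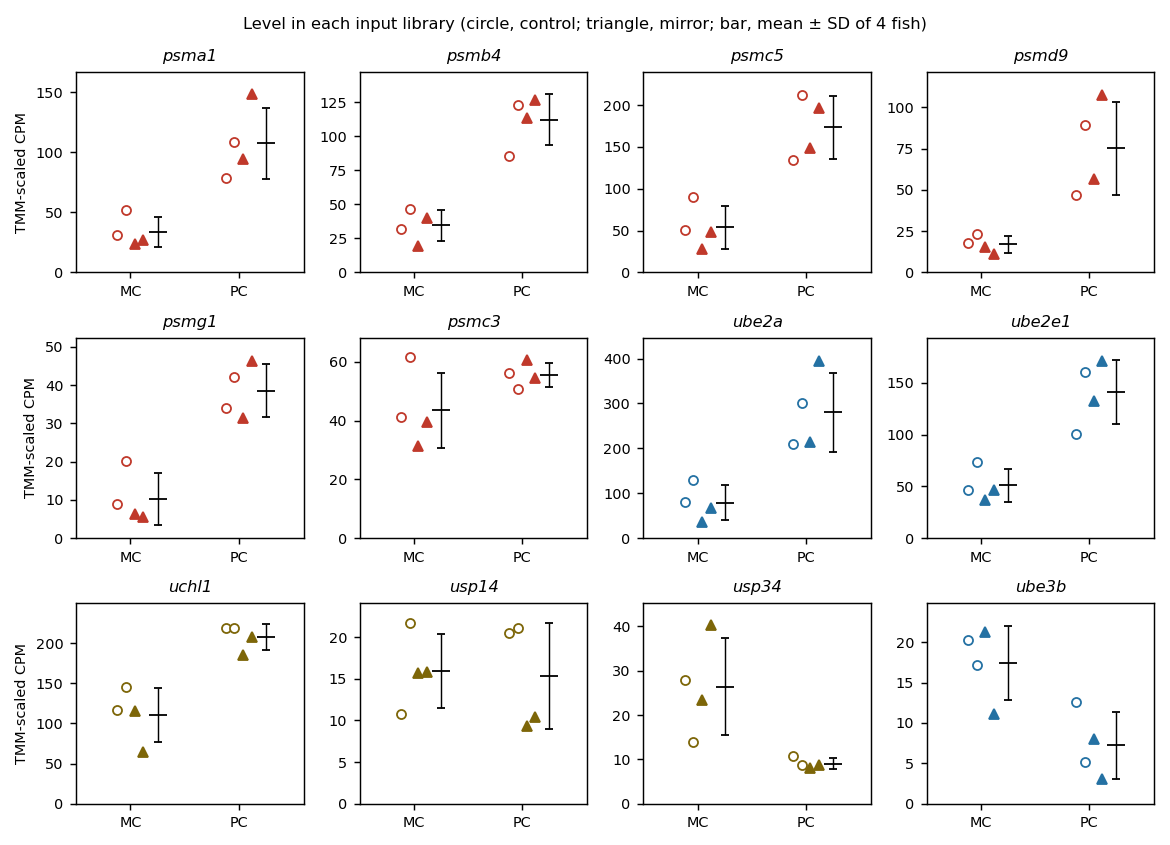
Scaled CPM (vertical axis, from 0) of 12 members in each input library, MC on the left and PC on the right of each panel, with the mean ± SD of 4 fish. Circles are control fish and triangles mirror fish; in psma1, psmb4, psmc5, psmd9, psmg1, ube2a, ube2e1 and uchl1 all PC fish lie above all MC fish, in psmc3, usp14 and ube3b the species overlap, and in usp34 the PC fish lie below.

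Of 20 conjugating enzymes, 8 were higher in PC and 0 lower. The enzyme ube2a, which in yeast and mammals acts in DNA damage tolerance and histone ubiquitination, had 80.4 and 130 CPM in MC controls and 35.7 and 68.1 in MC mirror fish, and 210 and 301 in PC controls and 215 and 396 in PC mirror fish. The species did not overlap (1.93 ± 0.18, adjusted p = 7.08e-04). Its close relative ube2b had 57.3 and 67.7 CPM in MC controls, 42.8 and 26.2 in MC mirror fish, 102 and 102 in PC controls and 109 and 101 in PC mirror fish (1.16 ± 0.22). The enzyme ube2n, which builds signalling chains, differed by 0.94 ± 0.22. The enzyme ube2t, of the Fanconi pathway, had 3.35 to 12.6 CPM in MC and 21.03 to 41.1 in PC (2.26 ± 0.26). Also higher were ube2e1 (1.49), ube2g2 (1.21) and ube2l3 (0.88). The NEDD8-conjugating enzyme ube2m had at most 1.45 CPM in any input library and did not pass.

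Of the 3 ube3 ligases, ube3b was lower in PC. It had 20.2 and 17.2 CPM in MC controls, 21.3 and 11.1 in MC mirror fish, 12.6 and 5.18 in PC controls and 7.96 and 3.12 in PC mirror fish. The ranges overlapped through MC fish 21 and PC fish 11 (−1.42 ± 0.34, adjusted p = 0.0306). The call was lost under 10 of 21 alternatives, among them no batch term (adjusted p = 0.1001). For ube3c and ube3d no difference was detectable at this depth.

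Among 37 usp genes, 1 was higher and 1 lower in PC. The gene usp39, whose mammalian product acts in splicing, had 1.09 to 7.79 CPM in MC and 7.68 to 21.3 in PC (1.91 ± 0.51, adjusted p = 0.0491). Its call was lost under 11 of 21 alternatives, among them RLE size factors (adjusted p = 0.0563) and the filter of 10 counts in 4 of 8 inputs (adjusted p = 0.0581). The large protease usp34 had 28.0 and 13.9 CPM in MC controls, 23.5 and 40.3 in MC mirror fish, 10.8 and 8.75 in PC controls and 8.01 and 8.65 in PC mirror fish. All PC fish lay below all MC fish (−1.52 ± 0.34, adjusted p = 0.0228). The proteasome-bound protease usp14 had 10.8 to 21.6 CPM in MC and 9.32 to 21.1 in PC, overlapping ranges (−0.14 ± 0.29). Of the 3 hydrolases, uchl1 was higher in PC, with 117 and 145 CPM in MC controls, 116 and 64.4 in MC mirror fish, 219 and 219 in PC controls and 185 and 207 in PC mirror fish (0.94 ± 0.23, adjusted p = 0.0325). The relative uchl3 had a similar log2 fold change with a wider error (1.10 ± 0.30, adjusted p = 0.0509), and uchl5, a hydrolase of the regulatory particle, did not pass (−0.15 ± 0.46).

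In all, 35 members had every PC fish above every MC fish, 5 had every PC fish below, and 58 overlapped, among them psmb8, which had no counts. The share of all loci without overlap was not computed, so these counts cannot be set against it. Within batch a the median log2 difference of the proteasome genes was 0.99, and within batch b it was 1.10. All 29 members called higher in PC were higher in both batches. They were called from these same libraries, so this adds no separate evidence.

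The species differed in more than these genes. Loci that lie within introns had a median log2 fold change of −1.63, and they took 1.22% to 2.11% of the counts of MC inputs and 0.566% to 0.767% of those of PC inputs. The TMM factors were 1.02 to 1.21 in MC and 0.762 to 1.01 in PC. Across annotated loci the share called higher in PC rose with level and fell with the genomic span of the locus: 26.0% of loci up to 4096 bases were higher, against 2.58% of those over 16384 bases. Of short loci (up to 4096 bases) with a mean log2 CPM over 6, 74.8% were higher. Among 97 members the Spearman correlation of span with log2 fold change was −0.54, and among 16911 annotated loci −0.32, where all points share the same libraries. The tested proteasome loci are short (median span 4635 bases) and the deubiquitination loci long (median 14988.5 bases). The part of these features in the result was not tested. Reads of both species were counted on the same set of loci, and how well each species matches that set was not tested.

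Set against the median of annotated loci of the same span and level, 27 of 34 proteasome genes lay above their band, and the median difference from it over all 34 was 0.41. Of the 23 conjugation genes 17 lay above, with a median difference of 0.48 over the 23. Of the 40 deubiquitination genes 15 lay above, with a median difference of −0.28 over the 40. Such bands were set after the data had been seen, and no test was made on them. Ribosomal protein genes (50 of 59 higher in PC, median 0.83) and nuclear genes of the respiratory chain (40 of 45, median 1.72) also moved the same way.

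**Figure D3:**
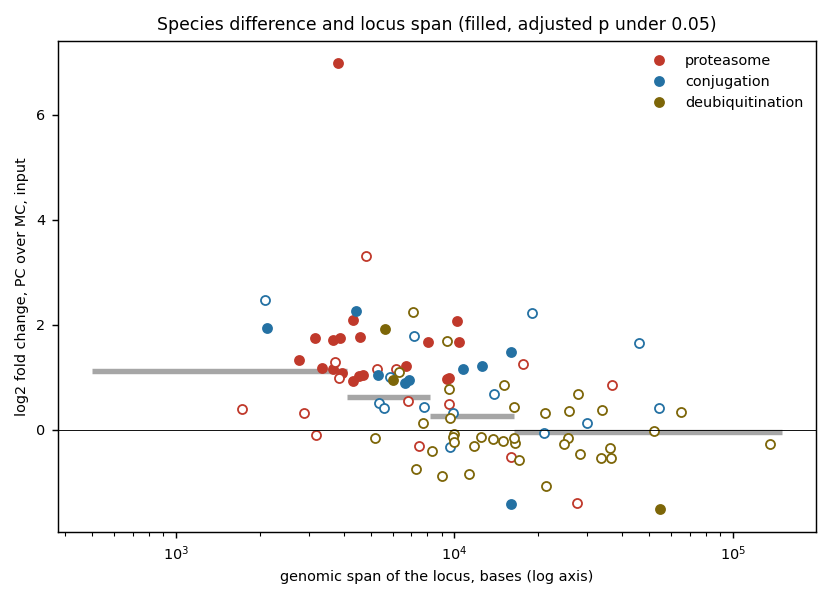
Log2 fold change of PC over MC in input (vertical axis) against the genomic span of each member's locus in bases (log axis), with filled points for an adjusted p under 0.05. Grey bars give the median of annotated loci in each span class, from 1.13 for the shortest to −0.04 for the longest; most proteasome and conjugation points lie above them.

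Cell type markers differed as well. Summed in CPM of the library total, radial glia and astrocyte markers stood at 4365 to 5724 in MC inputs and 6513 to 10937 in PC inputs, of which s100b takes the largest part. Of the 3 tested, fabp7 and s100b were higher in PC, while slc1a2 had 904 ± 324 scaled CPM in MC and 540 ± 97.4 in PC (−0.74 ± 0.26, adjusted p = 0.119). Oligodendrocyte markers stood at 871 to 1166 in MC and 164 to 675 in PC, with mag lower and 2 of 3 not passing. Neuron markers stood at 3062 to 4152 in MC and 1869 to 3277 in PC, with none of 5 passing. Microglia and macrophage markers summed to 394 to 541 in MC and 239 to 386 in PC, and endothelial and mural markers to 63.6 to 82.7 and 32.3 to 43.3, with none of 4 and none of 5 passing. Both skeletal muscle markers, mb and actc1, were higher in PC (sums of 24.7 to 127 in MC, 251 to 708 in PC). Most of these sums was mb. For actc1 the scaled CPM were 1.28 ± 1.46 in MC and 17.1 ± 29.7 in PC (SD, n = 4 fish each). Its SD in PC was above its mean, so the PC fish were uneven. Of the markers that matched a symbol, aqp4 of the radial glia was at 0 in every library and all others were counted in input. The part of cell makeup in the result was not tested.

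Genes that work beside the members moved as follows. Of 12 partners of the proteasome, 4 were higher in PC and 1 lower. The maturation factor pomp, which closes the core around its beta subunits, had 127 ± 42.1 scaled CPM in MC and 620 ± 203 in PC (SD, n = 4 fish each; log2 fold change 2.29 ± 0.17), and the small regulatory subunit sem1 differed by 1.03 ± 0.15. The transcription factor nfe2l1, which in mammals induces proteasome genes, was lower in PC, at 58.0 ± 14.8 against 26.2 ± 6.60 (−1.14 ± 0.26, adjusted p = 0.0271). Of 8 ubiquitin-like modifiers 5 were higher, among them the autophagy protein gabarap at 176 ± 44.0 in MC and 1716 ± 325 in PC (3.29 ± 0.17). Of 13 cullin-ring genes tested 3 were higher, including the ring subunit rbx1 (2.02 ± 0.25). Of 6 activating enzymes none passed (0 with an unadjusted p under 0.05), and of 47 other ligases 2 were higher (prkn and rnf4) and 1 lower (mycbp2). The p97 group had 3 of 14 higher, the COP9 signalosome 2 of 7 and the list of other deubiquitinases 3 of 20. The COP9 subunit cops6 was on the COP9 list and on that of other deubiquitinases, and is counted as higher in each. The ubiquitin precursor rps27a did not pass (0.38 ± 0.14).

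The mirror comparison in total RNA asked what changed 90 min after the encounter. No member passed, against 0.0104% of all loci, and 5 of 97 members (5.15%) had an unadjusted p under 0.05 (edgeR), near the 4.07% of all loci. These were ube2a, ube2t, psmc5, psmc6 and psmd8, each with a negative value. For psmd8 the raw counts were 12 and 45 in MC controls and 0 and 0 in MC mirror fish, whereas PC controls (14.1 and 21.4 scaled CPM) and PC mirror fish (9.41 and 26.7) overlapped. Its adjusted p was 0.423, and since a group is at 0 no fold is given. DESeq2 and a fit with no filter on low counts each called 1 member, psmd8. Over all loci DESeq2 called 47 of 28742 higher and 92 lower, and the fit with no filter 106 of 52868 higher and 166 lower. A run without 1 fish has 1 fish left in a group, and more loci of any kind were called in it. Leaving out a fish called 1 to 4 members: psmd8 in every case, with ube2c without fish 21 and with usp3, usp32 and ube2ql1 without fish 9. The conjugating enzyme ube2t had 7.19 and 12.6 scaled CPM in MC controls and 3.35 and 4.28 in MC mirror fish, and 28.6 and 41.1 in PC controls and 21.03 and 28.0 in PC mirror fish (−0.91 ± 0.25, adjusted p = 1.00). In each species both mirror fish lay under both controls. The ATPase psmc6 had −0.56 ± 0.21 (adjusted p = 1.00), and the median over the 34 proteasome genes was −0.13, against −0.08 over all loci.

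The species difference of the mirror response was also below the threshold for every member, against 0.0104% of all loci. At an unadjusted p under 0.05 (edgeR) stood 8 of 97 members (8.25%), beside 5.02% of all loci. These were 7 of the 34 proteasome genes, 1 of the 23 conjugation genes and 0 of the 40 deubiquitination genes. Nuclear genes of the respiratory chain had 19 of 45 at that limit. DESeq2 called 2 members, psmd8 and ube2a, and a fit with no filter called psmd8. Over all loci DESeq2 called 132 of 28742 higher and 43 lower, and the fit with no filter 195 of 52868 higher and 114 lower. Here too a run without 1 fish has 1 fish left in a group and called more loci of any kind. Leaving out a fish called 1 to 4 members, with psmd8 among them in every case but that of fish 21, where ube2c was called, and with usp3, psmb2 and ube2ql1 added without fish 9 and psmb2 without fish 24. The proteasome genes had a median of 0.62 on the log2 scale, with 31 of 34 positive, against a median of 0.14 over all loci, and ribosomal protein genes had 58 of 59 positive (median 0.42). In the sums given above, both MC mirror fish lay under both MC controls, and the PC mirror fish lay at 1812 and 2155 against 1563 and 2000 in the PC controls. For ube2a the difference of the responses was 1.26 ± 0.35 (adjusted p = 0.857).

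The IP libraries recovered fewer loci than input, members included: 3714 to 10466 loci of any kind had counts in an IP library and 30469 to 34760 in an input library. The mean number of members detected was 37.8 ± 15.3 (SD, n = 8 fish) in IP and 94.6 ± 2.92 in input. It was lower in IP in 8 of 8 fish (p = 0.0078 in a two-sided exact test that flips signs, the least that 8 fish can give). Of the values of 98 members in 8 IP libraries, 61.5% were 0, against 3.44% in input, but where a member was counted in IP its median count was 276, against 219 in input. Only 25 of 784 IP values lay between 1 and 9. Within groups the log2 values varied with a median SD of 2.40 in IP and 0.507 in input.

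Recovery followed the level in input, in shares taken over genes counted in every input library. Of the members with 10 to 30 CPM in input, 35.8% of the values in IP libraries were above 0, against 36.4% for annotated loci of that level, and at 30 to 100 CPM the shares were 64.7% and 64.0%. The 34 deubiquitination genes counted in every input, a family with low levels in input, had counts in 27.9% of IP values. The 32 proteasome genes counted in every input had counts in 53.1%. Of 86 members counted in every input library, 42.3% of the IP values were above 0, against 36.1% for annotated loci counted in every input. Counts in all 8 IP libraries were found for 5 of them (5.81%, against 6.36% of annotated loci): psma3, psma8, psmc3, ube2n and usp19. In no IP library were counts found for 11 of the 86 (12.8%, against 18.1% of annotated loci), among them usp14 and psmd5. For usp14, which had 136 to 239 counts in each input library, the pooled IP level was at least 247-fold lower, taking 3 counts over the 8 IP libraries together as the limit. These limits cover counting error only.

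**Figure D4:**
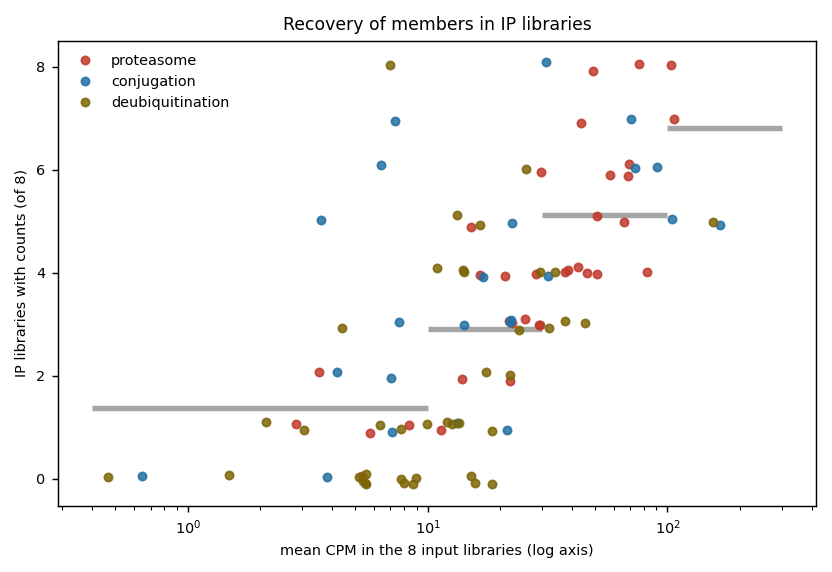
Number of the 8 IP libraries with counts (vertical axis, points shifted slightly to separate them) against mean CPM in the 8 input libraries (log axis) for each member with counts. Grey bars give the mean for annotated loci of the same input level that were counted in every input, from 1.38 libraries below 10 CPM. The members scatter around them, with usp genes mainly at the low end.

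The comparison of IP with input asked which RNAs the antibody enriches. Cell type markers differed in it too: over all loci 3 of 5 neuron markers were lower in IP and 0 higher, as were 3 of 3 of radial glia, 2 of 3 of oligodendrocytes, 4 of 4 of microglia, 5 of 5 of vessels and 2 of 2 of muscle. Their sums in CPM were 1352 to 3483 in IP and 1869 to 4152 in input for neurons, and 1200 to 3553 in IP and 4365 to 10937 in input for radial glia. Among the more abundant ones, the neuron marker snap25 had a log2 fold change of −1.18 ± 0.33 (edgeR adjusted p = 0.0333) and nefm −1.46 ± 0.46 (adjusted p = 0.0476). The neuron markers nefl (0.89 ± 0.35, adjusted p = 0.101) and syt1 (0.49 ± 0.31, adjusted p = 0.294) were positive and did not pass. The glial s100b had −2.23 ± 0.29. The part of cell makeup in the members' values was not tested. Over all loci, 1 member, psmc3, was higher in IP and 61 of 97 were lower, against 0.331% and 57.4% of all loci, so the share of members that were lower was near the background. With the fish as a replicate block, which pairs both libraries of an animal, 0 members passed in either direction and 46 had an unadjusted p under 0.05 (edgeR). In that fit 8 of all 29597 loci were higher and 173 lower, so few loci of any kind passed. The value of psmc3 was 2.27 with the block (adjusted p = 0.158), against 2.32 ± 0.50 (adjusted p = 0.0036) without it. The number lower was 28, 39 and 40 without fish 9, 21 and 11, and it was 0 in each batch alone and without both MC fish of batch a, where 20 (batch a), 7 (batch b) and 54 members had an unadjusted p under 0.05. Each of those runs had 1 fish in at least 1 group, and fewer loci of any kind were called lower in it. In the reported fit, of the usp genes 30 of 37 were lower, of the conjugating enzymes 11 of 20, and of the beta subunits 0 of 4. The log2 fold changes of the genes at 0 in IP depend on the prior count and are not given.

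The comparison was repeated on the 836 loci with a mean log2 CPM above 7, of which 12.4% were higher in IP and 11.7% lower. Only 3 members are among them: psmc3, psmc5 and ube2a. The ATPase psmc3 reached this limit through its IP libraries alone, with 49.0 ± 10.4 CPM in input and 408 ± 307 in IP (SD, n = 8 fish each), as did psmc5 and, in all, 159 of the 836 loci, of which 20.1% were higher in IP. Its log2 fold change among these loci, 2.52 ± 0.35 (edgeR adjusted p = 0.0011), is therefore a description and adds nothing to the test over all loci. Its IP counts were 1314 and 9810 in MC controls 10 and 22, 980 and 2743 in MC mirror fish 9 and 21, 767 and 620 in PC controls 11 and 24, and 1320 and 5051 in PC mirror fish 12 and 23. In CPM of the library total these were 484, 1059, 523, 300, 110, 146, 191 and 452, and the matching inputs, listed alike, had 48.9, 67.6, 37.8, 39.8, 49.0, 46.7, 60.8 and 41.5. IP exceeded input in 8 of 8 fish, by 2.25 to 15.7 times, and the ranges of IP and input did not overlap. With the fish as a replicate block the value among these loci was 2.46, and in batch a alone it was 2.23 and in batch b alone 2.62. These values are descriptions too. The locus spans 1726 bases on the minus strand, in a genome build not given in the sources used here. It overlaps the locus of tbp on the plus strand by 5 bases, and tbp had 1157 counts over all 16 libraries against 28061 for psmc3.

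The nearest member is psmb1, 1462 bases away, and it had 0 counts in 4 of 8 IP libraries. The other ATPase in this group, psmc5, had IP counts of 1462, 402, 0 and 1758 in MC fish 10, 22, 9 and 21 and 732, 310, 505 and 8551 in PC fish 11, 24, 12 and 23. It exceeded its input in 3 of 8 fish (0.63 ± 0.99, adjusted p = 0.686), and its sign turned with the fish as a replicate block (−0.61) and without fish 10 (−0.41) or fish 21 (−2.69). The conjugating enzyme ube2a had 0, 1999, 0 and 45 IP counts in the MC fish and 0, 598, 569 and 3224 in the PC fish, and exceeded input in 1 of 8 (−3.18 ± 1.48, adjusted p = 0.158). It was lower with DESeq2 (−3.35, adjusted p = 0.0105) and with limma on the differences within fish (−4.38, adjusted p = 0.0465).

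**Figure D5:**
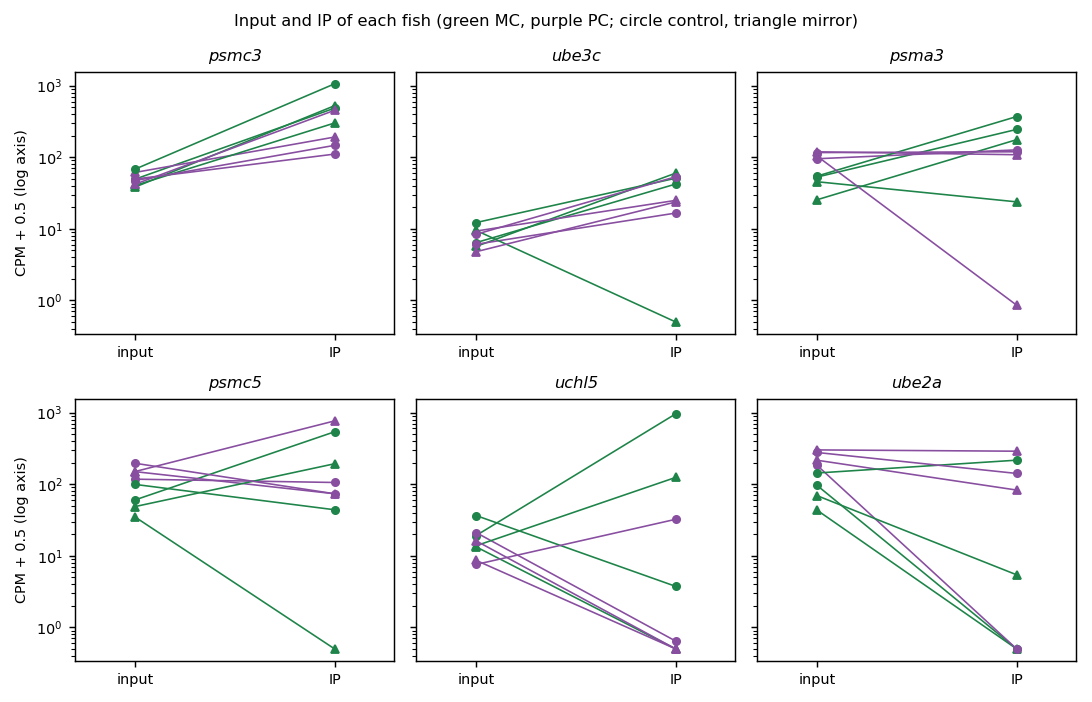
CPM plus 0.5 (log axis) in the input and IP library of each fish for 6 members, joined by a line per fish, green for MC and purple for PC, circles for control and triangles for mirror fish. In psmc3 all 8 lines rise and in ube3c 7 of 8, whereas in psma3, psmc5, uchl5 and ube2a lines run both ways.

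Outside the abundant loci, ube3c, a ligase that in mammals extends ubiquitin chains on proteasome-bound substrates, had IP counts of 113 and 466 in MC controls, 111 and 0 in MC mirror fish, 112 and 224 in PC controls and 169 and 259 in PC mirror fish. IP exceeded input, by 2.78 to 11.5 times, in 7 of 8 fish, and MC mirror fish 21 had 0 (1.71 ± 1.11, adjusted p = 0.215 over all loci). Without fish 9 the fitted value was −0.98. A second locus with the symbol ube3c overlaps it by 276 bases on the other strand, with 230 counts against 2239. The hydrolase uchl5 was uneven between fish of a group, with IP counts of 2598 and 30 in MC controls, 0 and 1130 in MC mirror fish, 1 and 135 in PC controls and 0 and 0 in PC mirror fish. It exceeded input in 3 of 8 fish. Its relative uchl1 had 0 and 1389 IP counts in MC controls, 372 and 0 in MC mirror fish, 614 and 332 in PC controls and 162 and 0 in PC mirror fish, and exceeded input in 1 of 8. The protease usp19 had 3 to 40 counts in every IP library and was below input in 8 of 8 fish (−2.15 ± 0.65, adjusted p = 0.0160), but with the fish as a replicate block it did not pass (−2.14, adjusted p = 0.564), nor without any 1 of the fish.

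Whether enrichment differed between species or with the mirror was tested in the abundant loci, and none of the 3 members passed in any of these comparisons, against 1.2% of loci for the species difference and 0.239% for each of the mirror effect and its species difference. At an unadjusted p under 0.05 stood 1 member for the species difference (psmc3) and 0 for the other comparisons (edgeR). For psmc3 the species difference of IP enrichment was −1.62 ± 0.67 (adjusted p = 0.297). In IP, the 4 MC fish had 300 to 1059 CPM and the 4 PC fish 110 to 452, so the species overlapped.

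The authors' deposited table of IP against input does not state its direction, which was read from psmc3. The sign of psmc3 in it (2.82) was set by that reading and is no separate evidence. On that reading psmc3 and ube3c (1.90) are higher at an adjusted p under 0.05 in the authors' deposited table, and 38 of 97 members lower. For usp14, without counts in any IP library, the authors' deposited table has −6.60. Of all loci with an adjusted p, 3.97% are higher and 40.6% lower in the authors' deposited table. The authors' deposited table of the mirror effect gives usp20 a log2 fold change of 6.36 and psmg1 one of −7.67, the only calls among 94 members with an adjusted p, against 1.66% of loci with a positive and 2.56% with a negative value. In the authors' deposited table of its species difference ube2t, usp10 and psmc6 have negative values past that threshold, 3 of 82 members, against 4.01% of loci. Of these 5 genes, psmg1 had counts in 3 of 8 IP libraries and usp20 in 2.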

How the data were processed

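RNA sequencing libraries of input and IP from 8 fish were analysed. The authors deposited raw counts per assembled locus and library, with the locus annotation given per the file headers. Per the submitters' processing notes cutadapt, HISAT2, StringTie and DESeq2 were used, with versions, settings, strand and genome build not given in the sources used here. Tables from DESeq2 were deposited by the authors as well, with log2 fold changes and p-values, in which an adjusted p written as 100 was read as missing; that column was handled as a score in the deposited tables.

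All other values were computed from the counts with R 4.3.3, edgeR 4.0.16 (TMM, filterByExpr, quasi-likelihood F tests, two-sided, Benjamini-Hochberg over all loci tested, threshold 0.05), limma 3.58.1 and DESeq2 1.42.0, with data.table (version 1.17.8) for reading. Input comparisons used the 8 input libraries (28742 loci), and IP comparisons all 16 (29597 loci, or the 836 with a mean log2 CPM above 7), each with group and batch as terms. The SE of a log2 fold change is the one the F statistic implies. Scaled CPM are CPM divided by TMM factors. The limits given for members without IP counts cover counting error only. The fit was run on simulated counts, drawn independently for each library with the same dispersion of a locus in IP and input. That setting lacks the wider spread of IP libraries and the pairing by fish, so it says nothing on these features of the IP fits.

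Labels give each fish 1 input and 1 IP library, so the fish pairs them, and deviations from the group means correlated at 0.16, 0.05, 0.51 and 0.22 (MC control, MC mirror, PC control, PC mirror; 836 loci). Each group holds 2 fish.

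Members and gene lists were chosen with earlier results of these data known. Named genes were members past the threshold (up to 10 a direction), the 2 members of highest level and the 2 of smallest p in each family, a short list of well-known members, and context genes past the threshold; psma4, psmc3ip, psmc4, psmd2, psmd13, ube2c, ube2e1, ube2g2, ube2l3, ube2n, ube2ql1, usp19 and usp20 fall outside this rule and were named after their values were seen. Alternatives were RLE size factors, DESeq2, no batch term, no filter, at least 10 counts in 8 of 16 libraries (4 of 8 for input), other abundance limits, counts summed per symbol, the fish as a replicate block, limma on differences within fish, each batch alone for IP, all 16 libraries in one fit, and leaving out each fish. After the data had been seen, thinning the inputs to equal depth, library totals without TMM factors, each batch alone for input, each exposure alone and leaving out both MC fish of batch a were added. Sequences of the members were not used here, and 1 member that entered the counts is not reported by name.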

Additional observations from a re-analysis of the deposited data

Results flagged for a closer look

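Samples standing apart were sought in the 84 groups of 4 or 8 values of the named members, and 2 were found, where chance alone sets apart about 1 group in 20. For ube2b in PC input, mirror fish 12 had 109 scaled CPM and the other 3 PC fish had 101 to 102. For ube3c, MC mirror fish 21 had a log2 CPM difference of IP minus input of −4.25, against 1.42 to 3.40 in the other 7 fish.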

How the results depend on the processing

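For PC against MC in input, 29 members were higher and 2 lower in the reported fit. Leaving out a fish gave 25 to 46 higher, 1 to 3 lower, 18 to 27 proteasome genes higher and a proteasome median of 0.99 to 1.34. Batch a alone gave 13 higher and 0 lower, with 10 proteasome genes higher, and batch b alone gave 0 of each. With all 16 libraries in one fit, 0 were higher or lower and the proteasome median was 0.81. With library totals in place of TMM, 12 were higher, 9 of them proteasome genes, with a median of 0.81. Control fish alone gave 0 higher and 0 lower (median 0.85), and mirror fish alone 12 higher, 9 of them proteasome genes, and 0 lower (median 1.40). With no batch term 24 were higher and 1 was lower, where 1823 of all 28742 loci were higher and 521 lower. That fit ended the calls of psma2, psmc4, psmg4, ube2l3, uchl1 and ube3b. Of the members that did not pass, usp14 turned to 0.0309 without fish 9, 0.17 without fish 22, 0.0246 in batch a and 0.40 in control fish, ranging from −0.31 to 0.17 over the fish left out. The value of uchl5 turned to 0.0360 in batch a and 0.0873 in mirror fish, and ranged from −0.91 to 0.30 over the fish left out. Each batch alone has 1 fish per group, and leaving out a fish leaves 1 in its group. Over all loci the number called higher in PC fell in each batch alone, further in batch b than in batch a. It also fell with all 16 libraries, library totals, control fish alone and mirror fish alone. Leaving out a fish tested more loci and raised that number, except without fish 10, where it fell. With 1 fish in a group, the member counts of the single batches and of the runs without a fish cannot be set against the 29 of the reported fit. The causes of these changes were not tested.

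The mirror comparison in input gave 0 members, but 1 to 4 when a fish was left out, 1 with DESeq2 and 1 with no filter on low counts. Its species difference gave 2 with DESeq2 and 1 with no filter. In both comparisons leaving out a fish leaves 1 fish in a group, and calls rose over all loci as well as among members.

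For IP against input over all loci, leaving out a fish left 28 to 51 members lower and 1 higher, where 61 and 1 were reported. The fish as a replicate block gave 0 lower and 0 higher, where 173 of all 29597 loci were lower and 8 higher. Each batch alone and each run that leaves out fish has 1 fish in at least 1 group. Fewer loci of any kind were called lower in each of them. The value of ube3c ranged from −0.98 to 2.20 over the fish left out, and was −0.57 in batch b alone and −0.99 without both MC fish of batch a.

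Over all loci the replicate block ended the call of psmc3. Among abundant loci, which psmc3 joined through its IP level alone, its value with the block was 2.46. That value describes psmc3 and adds nothing to the test over all loci. DESeq2 and limma on differences within fish called 2 members (psmc3 and ube2a), each batch alone called 0, and an abundance limit of 8 left 0 members to test. The value of psmc5 ranged from −2.69 to 0.89 over the fish left out, and was −0.61 with the replicate block, −0.83 with limma, −1.51 in batch a alone and −0.0317 without both MC fish of batch a. The comparisons of enrichment between species and exposures called 0 members in each alternative run, replicate block included. Among the abundant loci the block changed no call of a member.

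The number of members detected stayed lower in IP with limits of 10 counts (by −58.6) and 5 CPM (by −46.9). Of the members' IP values 61.5% are 0, and the IP library with most counts, PC mirror fish 23, detected 30 members, whereas PC control fish 24 with 4250470 counts detected 55.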
